A study of Homo sapiens with 2 samples.

Results

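Cells with a high mitotic transcript score were compared between EGF with a MEK inhibitor and EGF alone, at 30 h after EGF. MCF10A cells come from human breast epithelium, are immortal but form no tumours, and need EGF to divide. In both groups the cells had been given EGF, and in the inhibitor group a MEK inhibitor was added 15 h later; the sources used here give neither its name nor its dose. All conditions of a biological replicate carried sample tags and were pooled, so that each of 2 replicates is 1 library and n = 2 for each group. The score M of a cell is the share of its UMIs (unique molecular identifiers, 1 per counted transcript molecule) that came from 10 mitotic genes: TOP2A, CENPF, CDC20, CCNB1, PLK1, AURKA, HMMR, TPX2, UBE2C and DLGAP5. Cells above the 75th percentile of M of their own library, taken over all conditions, are called mitotic-high; the members were thus chosen by their measured UMIs of these 10 genes. This gave 799 mitotic-high cells at 30 h out of 4837 cells in all: 164 and 181 with EGF alone, and 117 and 337 with the inhibitor, in libraries 1 and 2. The other cells of the same groups, 81 and 163 with EGF alone and 229 and 279 with the inhibitor, are the remaining cells. Counts were summed per library, condition and class, and the 10 score genes were not read.

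MEK phosphorylates and activates ERK, which in epithelial cells switches on immediate-early genes, its own phosphatase and Sprouty inhibitors, cyclin D1 and genes of ribosome production. Transcripts for mitosis accumulate through G2 under the MuvB complex with B-MYB and FOXM1, and many of their promoters carry the CHR element, a short TTTGAA motif. CDK inhibitors of the CIP/KIP family (p21, p27 and p57) and the INK4 family restrain cyclin-dependent kinases and are often high in cells that leave the cycle.

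The percentile fell at very different scores in the libraries, of whose cells 37.0% (library 1) and 65.9% (library 2) were from conditions at 30 h. Cells of library 1 were mitotic-high above 3.64 score UMIs per 10000 UMIs, and cells of library 2 above 25.1. The lowest score inside and the highest outside were 3.64343 and 3.6368 in library 1, and 25.1953 and 25.1488 in library 2. Among mitotic-high cells the median M per 10000 was 19.0 with EGF alone and 34.0 with the inhibitor in library 1, and 40.9 and 51.2 in library 2. Inhibitor-treated members therefore had the higher scores in both libraries. Counts were therefore also made for cells drawn to an equal spread of M, 88 per group in library 1 and 175 per group in library 2, with medians of 27.2 (EGF) and 27.0 (inhibitor), and 41.5 and 42.1. The libraries had 33089090 and 28542571 UMIs and shared 0 cell barcodes. The summed members held 2732046 and 2788922 UMIs with EGF alone and 1833110 and 4989042 with the inhibitor. Median depth per member was 17900 and 15780 UMIs with EGF alone and 16820 and 14920 with the inhibitor, and the median share of mitochondrial-encoded UMIs was 4.66% and 4.91% against 5.47% and 5.40%. As a description of the class, 83 mitotic genes outside the score summed to between 11440 and 15930 CPM of all UMIs in the 4 mitotic-high sums and to between 1752 and 8447 CPM in the 4 remaining sums. All 8 epithelial markers of the line had UMIs in all 4 sums, of a leukocyte list the 1 gene present in both tables (LYZ) had 0 UMIs, and endothelial and erythroid lists summed to between 0 and 2.20 CPM (UMIs per 1000000 UMIs).

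The share of cells in the class is a description, since the class was cut from these scores. In library 1 it was 66.9% with EGF alone (exact 95% binomial interval 60.7 to 72.8) and 33.8% with the inhibitor (28.8 to 39.1). In library 2 it was 52.6% (47.2 to 58.0) and 54.7% (50.7 to 58.7). With 1 threshold for both libraries, the higher of the percentiles, the share in library 1 was 22.0% with EGF alone and 23.1% with the inhibitor. The spread of M is likewise only a description, since M set the class and cells are not replicates of a condition. Cells with M below 5 per 10000 were 230 of 346 with the inhibitor against 85 of 245 with EGF alone in library 1. In library 2 they were 189 of 616 against 39 of 344. Cells with M of at least 50 per 10000 were 33 of 346 against 8 of 245 in library 1 and 175 of 616 against 46 of 344 in library 2.

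**Figure D1:**
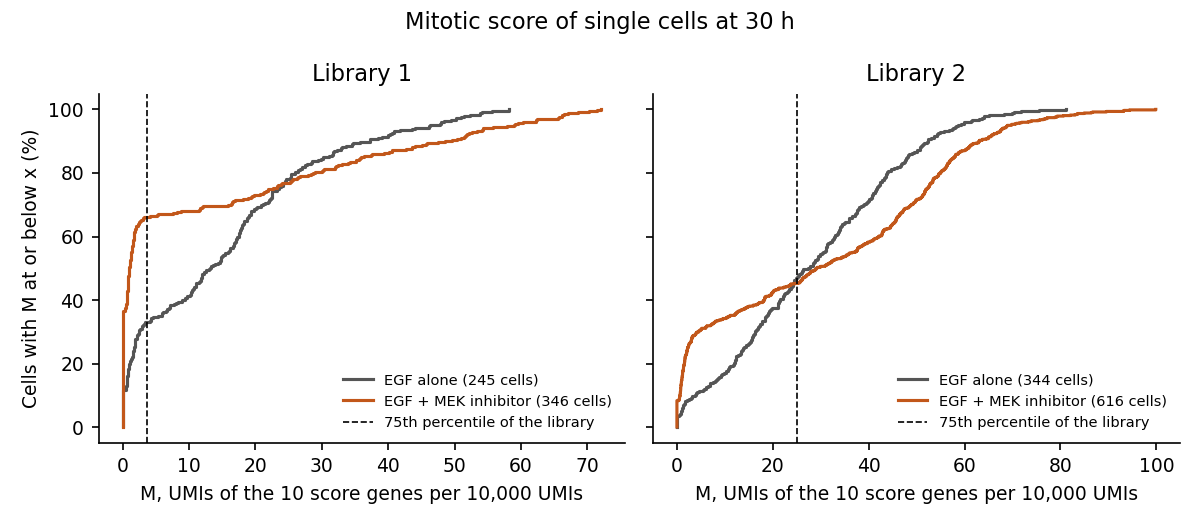
Cumulative share of cells (%) against the mitotic score M (UMIs of the 10 score genes per 10000 UMIs) at 30 h, 1 panel per library, with the 75th percentile of that library as a dashed line at 3.64 and 25.1. The inhibitor curve starts above the EGF curve at low M and runs below it at high M in both libraries.

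In mitotic-high cells the inhibitor was accompanied by a fall of ERK output genes and ribosome production genes and a rise of the CDK inhibitor CDKN1C, of the keratins KRT8, KRT15 and KRT16 and of the small heat shock proteins HSPB1 and CRYAB. The lists of these risen genes moved in both directions, with KRT18 among the falls. CDKN1C and CRYAB also rose in the remaining cells, by 4.06 and 4.14 on the log2 scale. The ERK output and ribosome biogenesis lists also fell there, with medians of -2.21 and -0.90. Of 9901 genes tested, 2798 (28.3%) passed an adjusted p of 0.05 (edgeR quasi-likelihood test, Benjamini-Hochberg over all tested genes), 1382 higher (14.0%) and 1416 lower (14.3%). Among cells with an equal spread of M, 2052 of 8973 genes (22.9%) passed. Without the library block 1156 passed, 584 higher and 572 lower. Counts of gene lists below are to be set beside these counts over all genes. Where a library is said below to be left out, only its sums at 30 h were left out. Each group then has 1 sum, and the spread comes from the sums at 20 h, which in library 2 hold 12 and 15 cells. The adjusted p values given for a left-out library thus measure no spread within the groups compared. Scaling by library totals in place of TMM moved the median change of all tested genes from 0.01 to -0.15 on the log2 scale and gave 931 higher and 2217 lower. Per the submitters each library is a biological replicate. The p-values measure the spread left after the block took out the shift between the 2 libraries, over the sums at 20 h and 30 h. That spread was taken from the trend over all genes and is not each gene's own spread between the libraries. The common coefficient of variation was 0.074 with the block and 0.154 without it.

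ERK output and feedback genes fell in mitotic-high cells. All 16 of 16 tested genes of this list passed as lower, with a median log2 change of -2.42 against 0.01 over all tested genes. DUSP6, the cytoplasmic phosphatase of ERK, had 24.5 and 20.4 CPM with EGF alone in libraries 1 and 2 and 1.26 and 1.69 CPM with the inhibitor. The groups did not overlap, and the log2 change was -3.74 ± 0.39 (SE; adjusted p = 3.6e-20). DUSP4, a nuclear phosphatase of the same family, had 59.1 and 62.1 CPM with EGF alone and 8.83 and 5.49 with the inhibitor, a log2 change of -3.22 ± 0.22. SPRY4, a Sprouty inhibitor of the pathway, had 13 and 17 UMIs with EGF alone and 0 and 0 with the inhibitor, which is at least 12.4-fold lower at a floor of 3 counts over the group. ETV4, an ETS transcription factor induced by ERK, went from 21 and 29 UMIs to 0 and 2. The AP-1 subunit FOSL1 changed by -2.64, PHLDA1 by -2.54, and IER3, an immediate-early gene, by -1.60 on the log2 scale. In the remaining cells 15 of 16 were lower, with a median of -2.21. Of the 13 still tested at an equal spread of M, 12 were lower. When the library block was dropped, 14 of 16 passed as lower.

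Of 5 tested ligands of the EGF receptor, through which epithelial cells stimulate themselves, 3 fell and 1 rose, with a median of -1.45. AREG, amphiregulin, had 916 and 653 CPM with EGF alone and 184 and 102 CPM with the inhibitor. Both inhibitor values lay below both EGF values, with a log2 change of -2.51 ± 0.14 (adjusted p = 1.81e-66). TGFA changed by -1.45 (adjusted p = 5.03e-05), and EREG by -1.07 (adjusted p = 0.00796). EPGN, epigen, was 43.1 and 34.4 CPM with EGF alone and 58.6 and 52.0 CPM with the inhibitor, a rise of 0.53 ± 0.16. Neither EPGN nor EREG passed when either library was left out (adjusted p 0.111 and 0.35 without library 1, 0.394 and 0.111 without library 2), and TGFA did not without library 2 (0.058). With library totals EPGN did not pass, and without the library block 2 ligands were lower and 0 higher.

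CDKN1C had the largest rise among genes with at least 20 CPM. It encodes p57, a CIP/KIP inhibitor of cyclin-dependent kinases, and lies at chr11:2883213-2885773 on the minus strand (GRCh38, GENCODE v29). It had 10.1 and 7.35 CPM in mitotic-high cells with EGF alone and 276 and 248 CPM with the inhibitor. This is a mean of 8.73 ± 1.95 (SD, n = 2) against 262 ± 19.6, a log2 change of 4.92 ± 0.18 (SE; adjusted p = 2.63e-165) or 30.2-fold. At an equal spread of M the change was 4.89. When each cell was thinned to 3000 UMIs, 41.9% and 44.2% of mitotic-high cells with the inhibitor had a CDKN1C UMI, against 2.44% and 0% with EGF alone; 0 of 181 cells allows a share of cells with a UMI at that thinned depth of up to 1.66%. Without thinning these shares were 72.6% and 82.2% against 12.8% and 8.29%. Unstimulated cells at 0 h, of all scores, gave 25.7% and 24.1% after thinning.

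The level of CDKN1C was also read across bins of M over all cells at 30 h, in CPM without TMM scaling. With the inhibitor it was 115 and 129 in cells with M below 5 per 10000, and 309 and 243 in cells with M of at least 50. With EGF alone no bin of either library was above 28.8, a bin of 8 cells. The inhibitor cells with the highest scores were thus above those with scores near 0 for this transcript. In the remaining cells the log2 change was 4.06, and the difference between the classes did not pass (0.98 ± 0.41, adjusted p = 0.729).

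Other CDK inhibitors and G1 regulators moved in both directions. CDKN2C, which encodes the INK4 inhibitor p18, had 25.3 and 24.1 CPM with EGF alone and 83.2 and 82.8 CPM with the inhibitor, a rise of 1.75 ± 0.16. CDKN2D, which encodes p19 of the same family, rose by 1.11 ± 0.14. At an equal spread of M these rises were 1.497 and 1.08. In the remaining cells neither gene passed (0.588 and 0.055, adjusted p = 0.0983 and 0.901). The difference between the classes passed for neither (adjusted p = 0.578 and 0.757). CDKN2C varied with M in inhibitor cells, with 13.5 and 17.3 CPM (without TMM scaling) below 5 per 10000, and 93.8 and 101.3 at 50 or more. With EGF alone these levels were 6.555 and 3.97, and 7.19 (8 cells) and 34.3. CDKN1A and CDKN1B (p21 and p27), named for their role after their values were seen, had changes of 0.05 (adjusted p = 0.874) and 0.52 (adjusted p = 0.0656). At an equal spread of M, CDKN1A was higher by 0.80 (adjusted p = 0.00309). CCND1, cyclin D1 and the partner of CDK4 and CDK6, fell from 92.1 and 126 CPM to 32.2 and 21.6 CPM, a log2 change of -2.17 ± 0.16. CDK2 itself was 9.72 and 6.01 CPM with EGF alone and 17.7 and 16.9 CPM with the inhibitor, a rise of 1.18 that did not pass without library 2 (adjusted p = 0.336). Of 18 tested genes 4 were higher and 7 lower, with a median of -0.32 (5 and 4 at an equal spread of M, 4 and 3 without the library block).

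**Figure D2:**
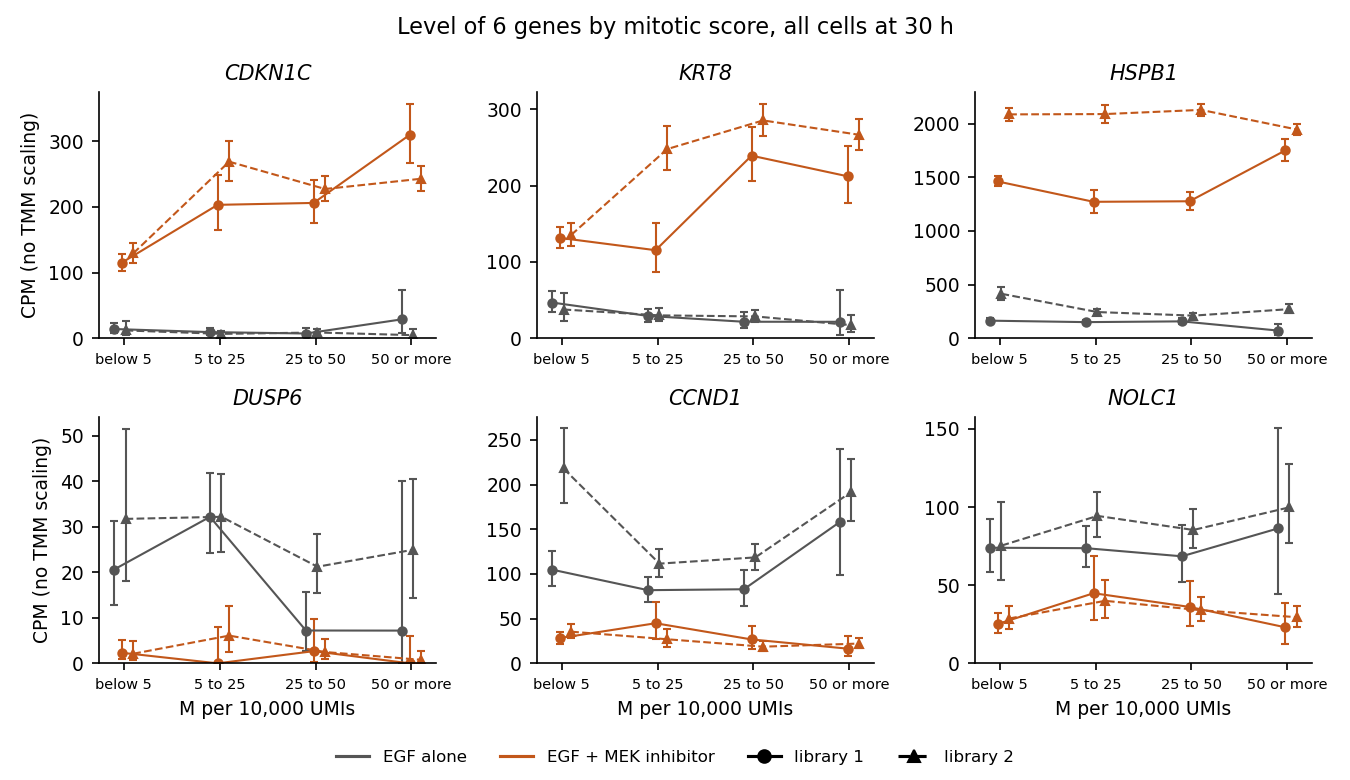
CPM (without TMM scaling) of 6 genes against bins of the score M per 10000 UMIs, for all cells at 30 h with EGF alone (grey) and with the MEK inhibitor (orange), in library 1 (circles, solid) and library 2 (triangles, dashed). Bars are exact 95% Poisson intervals and cover counting error only; CDKN1C, KRT8 and HSPB1 are above the EGF level and CCND1 and NOLC1 below it in all bins of both libraries.

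Transcripts of the mitotic machinery were modestly higher in mitotic-high cells with the inhibitor. These genes vary with the score that chose the cells, and the inhibitor members had the higher scores, so their changes are given with the equal-spread values. Over 6 mitotic lists, 43 of 83 tested genes were higher and 3 lower, with a median log2 change of 0.34. At an equal spread of M 22 were higher and 3 lower, with a median of 0.12. Without the library block 12 were higher and 2 lower, and with library totals 24 were higher and 4 lower. Over all genes tested 1382 of 9901 were higher and 1416 lower. At an equal spread of M 1043 of 8973 were higher and 1009 lower, and without the block 584 and 572 of 9901.

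Among genes for mitotic entry 5 of 12 were higher and 1 lower (2 and 1 at an equal spread of M, and also without the library block). CDK1, the kinase that drives entry, was 270.5 and 304 CPM with EGF alone and 341 and 425 CPM with the inhibitor, a rise of 0.41 that became 0.19 at an equal spread of M (adjusted p = 0.287). CCNB2, its B-type cyclin partner, rose by 0.92 (0.56 at an equal spread), and CDC25C, the phosphatase that activates CDK1, by 1.03 (0.76). CDC25C did not pass without library 2 (adjusted p = 0.145). MYBL2, which encodes B-MYB, went against the list: 47.4 and 42.4 CPM fell to 24.0 and 29.6 CPM, a log2 change of -0.70 that did not pass without library 1 (adjusted p = 0.197). FOXM1, named after its value was seen, had a change of 0.20 (adjusted p = 0.441).

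Of the mitotic kinases and checkpoint genes 9 of 14 were higher and 0 lower (edgeR at an adjusted p of 0.05), and 3 were higher at an equal spread of M and 1 without the library block. NEK2, a centrosomal kinase, rose by 0.95 ± 0.13, from 61.8 and 91.5 to 138 and 160 CPM, and by 0.57 at an equal spread. TTK, the checkpoint kinase MPS1, rose by 0.61, a change that was 0.35 at an equal spread (adjusted p = 0.127) and did not pass without either library (0.0958 without library 1, 0.133 without library 2). Of kinetochore genes 6 of 12 were higher, 4 at an equal spread and 2 without the block. SPC24, a subunit of the NDC80 complex that binds microtubules, rose from 23.7 and 18.4 to 63.7 and 48.8 CPM, by 1.41 ± 0.18 and by 1.36 at an equal spread. NDC80 rose by 0.75 and by 0.50. Of substrates of the APC/C ubiquitin ligase and exit genes 4 of 10 were higher and 1 lower (2 and 0 at an equal spread, and also without the block). PTTG1, securin, rose by 0.84 ± 0.13 and by 0.67 at an equal spread. Of 14 condensin, chromatin and envelope genes 4 were higher and 1 lower (2 and 1 at an equal spread, 0 and 1 without the block). HMGB2, a chromatin protein, rose by 0.67 and by 0.51, while LBR, the lamin B receptor of the inner nuclear membrane, fell from 105 and 134 to 59.9 and 65.9 CPM, a log2 change of -0.95 ± 0.13 and of -1.08 at an equal spread.

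Spindle, kinesin and cytokinesis genes had the largest share of rises among the mitotic lists, 15 of 21 with 0 lower and a median of 0.52. At an equal spread of M 9 were higher and 1 lower, with a median of 0.30, and without the library block 5 were higher. CKAP2, a spindle microtubule protein, rose from 144 and 175 to 345 and 343 CPM, by 1.10 ± 0.12 and by 0.76 at an equal spread. NUSAP1, which bundles spindle microtubules, rose by 0.99 (0.77), and KIF20A, a kinesin of the central spindle, by 0.99 (0.54). ANLN, anillin of the contractile ring, rose by 0.77 (0.53) and did not pass without library 1 (adjusted p = 0.0609).

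The upstream sequences of the members of this list that rose and carried TTTGAA, on either strand, in the 100 bases before the start are shown to let the shared element be seen. They are RefSeq sequences on GRCh38.p14, read 5′ to 3′ towards the gene and ending at the base before its start, with TTTGAA or its reverse complement TTCAAA in capitals.
PRC1: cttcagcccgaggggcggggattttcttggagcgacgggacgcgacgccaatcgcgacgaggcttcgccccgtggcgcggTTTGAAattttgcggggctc
ANLN: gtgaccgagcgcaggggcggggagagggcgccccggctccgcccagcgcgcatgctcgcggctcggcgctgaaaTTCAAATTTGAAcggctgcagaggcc
KIF11: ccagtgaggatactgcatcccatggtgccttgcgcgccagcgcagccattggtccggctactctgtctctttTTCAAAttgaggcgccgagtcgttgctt
KIF4A: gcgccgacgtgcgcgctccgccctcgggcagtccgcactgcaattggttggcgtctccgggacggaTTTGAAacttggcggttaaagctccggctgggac
CKAP5: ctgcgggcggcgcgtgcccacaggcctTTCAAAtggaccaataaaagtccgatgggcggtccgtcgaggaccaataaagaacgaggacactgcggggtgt

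These stretches lie at chr15:90994536-90994635 (minus strand) for PRC1, which crosslinks the central spindle, chr7:36389762-36389861 (plus) for ANLN, chr10:92593030-92593129 (plus) for KIF11, the kinesin that separates the spindle poles, chrX:70290004-70290103 (plus) for the chromokinesin KIF4A and chr11:46846281-46846380 (minus) for CKAP5, a microtubule polymerase. ANLN carries the motif on both strands in adjoining positions. The log2 changes were 0.79 for PRC1, 0.77 for ANLN, 0.62 for KIF11, 0.51 for KIF4A and 0.46 for CKAP5. Of those, KIF4A and CKAP5 did not pass at an equal spread of M (0.26 and 0.03, adjusted p = 0.333 and 0.921). The motif stood in this window in 4.64% of 27305 promoters and in 21 of 71 matched promoters of the mitotic lists (29.6%). It was present in 11 of 37 that rose (29.7%) and in 10 of 34 that did not (29.4%), so that its presence did not separate them. In the S phase list it was in 0 of 34 and in ribosome biogenesis in 0 of 18. A match describes letters and not binding.

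More S phase genes were lower than higher in mitotic-high cells with the inhibitor, with 20 of 44 lower, 2 higher and a median of -0.40. Over all genes tested 14.3% were lower and 14.0% higher. At an equal spread of M this excess of falls was not seen: 4 were lower and 4 higher, with a median of -0.24. Over all genes 1009 of 8973 were lower and 1043 higher at that setting. Without the library block 6 S phase genes were lower and 1 higher. UHRF1, which reads hemimethylated DNA at forks, went from 43.5 and 43.8 to 25.2 and 21.3 CPM, a fall of 0.93 on the log2 scale that was -1.02 at an equal spread and did not pass without library 2 (adjusted p = 0.136). MCM7, a subunit of the replicative helicase, had a log2 change of -0.71 (-0.43 at an equal spread). TK1, thymidine kinase, and RRM1, the large subunit of ribonucleotide reductase, went the other way, by 0.97 ± 0.15 and 0.37 ± 0.12, and RRM1 did not pass without either library (adjusted p = 0.333 and 0.225). In the remaining cells 37 of 44 were lower and 0 higher, with a median of -1.53.

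Ribosome biogenesis genes fell together: 22 of 22 were lower, with a median of -0.95 (-0.86 at an equal spread of M, again 22 of 22, and -0.90 with 19 of 22 in the remaining cells). When the library block was dropped, 17 of 22 passed as lower. LYAR, a nucleolar protein, had 226 and 196 CPM with EGF alone and 56.8 and 65.3 CPM with the inhibitor, a log2 change of -1.73 ± 0.13. RRS1 and BOP1, assembly factors of the large subunit, changed by -1.50 and -1.39, and ODC1, the first enzyme of polyamine synthesis, by -1.32. NOLC1, a nucleolar chaperone, had 79.3 and 82.2 CPM with EGF alone and 39.1 and 33.4 CPM with the inhibitor. Genes named by the rule were chosen with the same sign in both libraries, so their agreement between libraries is no separate result.

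Chaperones moved in both directions. HSPB1, the small heat shock protein HSP27 (chr7:76302544-76304295, plus strand), had 157 and 210.1 CPM with EGF alone and 1651 and 2145 CPM with the inhibitor, a rise of 3.37 ± 0.15 (adjusted p = 1.4e-111) or 10.4-fold. CRYAB, the small heat shock protein alpha-B crystallin, had 1.55 and 2.00 CPM with EGF alone and 47.3 and 34.0 CPM with the inhibitor, a rise of 4.43 ± 0.33. DNAJB1, a cochaperone of HSP70, rose by 0.84. HSPA8, the constitutive HSP70, fell from 1350 and 1494 to 751 and 868 CPM, a log2 change of -0.81. In all 5 of 13 were higher, HSPA1A and HSPA1B among them, and 7 lower, with a median of -0.51. Without the library block 3 were higher and 0 lower, so that none of the 7 falls kept its call. HSPA1A and HSPA1B are near-identical copies whose reads cannot be told apart with certainty, and are not read singly. KRT8, KRT18, HSPA8 and PTTG1 also have processed copies in the genome, and the sources used here do not say how reads with several positions were treated.

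Keratins and other epithelial genes moved in both directions. KRT8, a simple-epithelium keratin, had 28.8 and 24.4 CPM with EGF alone and 230 and 291 CPM with the inhibitor, a rise of 3.31 ± 0.15. Its usual partner KRT18 moved against it, from 583 and 564 to 183 and 225 CPM, a log2 change of -1.47 ± 0.13. CD24, a surface glycoprotein of luminal cells, had 10.5 and 30.7 CPM with EGF alone and 154 and 248 CPM with the inhibitor, a rise of 3.27. Of 7 simple-epithelium genes 3 were higher and 1 lower, with a median of 0.33.

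Among basal keratins KRT15 rose by 2.34 ± 0.14, from 35.8 and 32.1 to 183 and 162 CPM, and KRT17 by 1.74 and KRT5 by 0.99. The laminin-332 chain LAMB3 fell, with a log2 change of -0.95, and over the basal list 5 of 13 were higher, all of them keratins or COL17A1, and 5 lower, all laminin or integrin chains (4 and 3 without the library block). Of 14 squamous and stress genes 6 were higher and 2 lower, with a median of 0.61 (4 and 2 without the library block). KRT16, a keratin of stressed keratinocytes, rose from 66.1 and 71.8 to 588 and 727 CPM, by 3.25 ± 0.14, and TGM1, the transglutaminase of the cornified envelope, by 1.77. The calcium-binding alarmins S100A9 and S100A8 fell, S100A9 from 177 and 89.5 to 17 and 17.8 CPM with a log2 change of -2.71 ± 0.16, and S100A8 with -1.78.

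**Figure D3:**
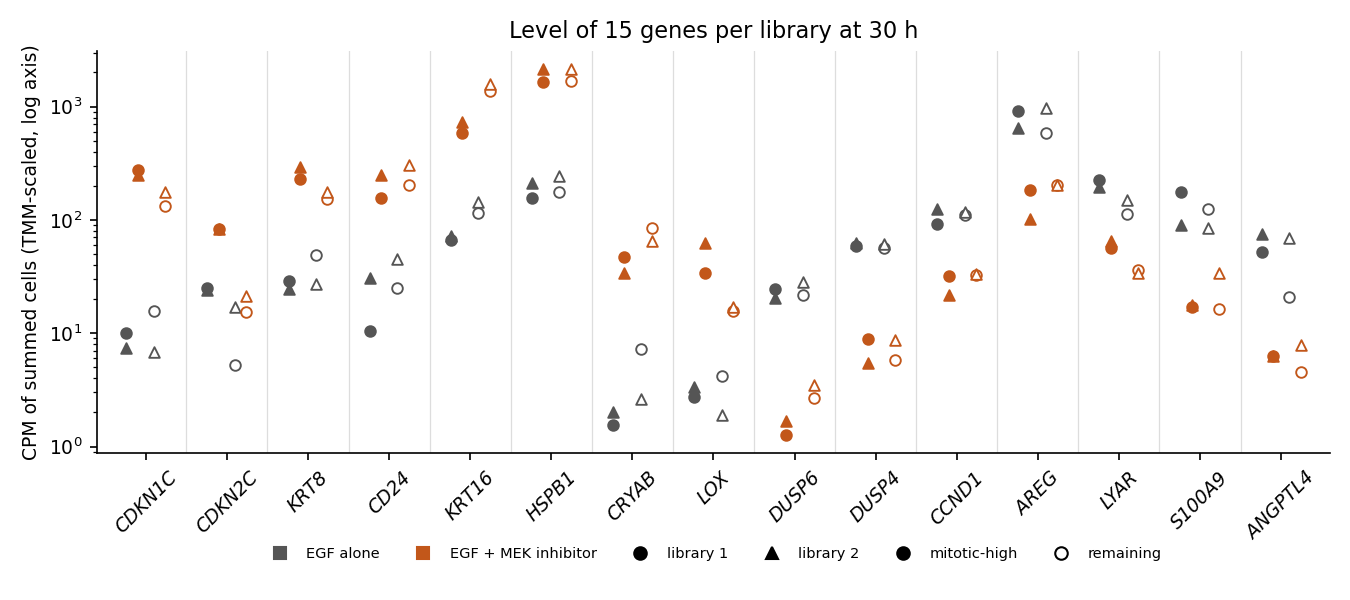
CPM (TMM-scaled, log axis) of 15 genes at 30 h, with EGF alone in grey and the MEK inhibitor in orange, circles for library 1 and triangles for library 2, filled for mitotic-high and open for remaining cells. In each gene shown, both inhibitor values of the mitotic-high cells lie on the same side of both EGF values. The genes were picked from those called with the same sign in both libraries, which favours this.

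FOXO targets, genes raised by FOXO transcription factors when growth signalling is low, were higher in 12 of 18 cases and lower in 1, with a median of 1.00. Over all genes tested 14.0% were higher and 14.3% lower. Without the library block these counts were 584 and 572 of 9901, and with library totals 931 and 2217. The list counts of this paragraph are to be set beside them. CITED2, a transcriptional coregulator, rose from 21.0 and 26.4 to 47.9 and 75.9 CPM, by 1.42 ± 0.17. FOXO1 itself rose by 1.15, and PINK1, the kinase of damaged mitochondria, by 1.32. TRIB1, a pseudokinase, went against the list (-0.97), with 5.83 and 19.0 CPM against 0.63 and 11.0 CPM, so that the groups overlap, and did not pass without either library (adjusted p = 0.198 and 0.298). Of 23 lysosome and autophagy genes 8 were higher and 0 lower (edgeR), with a median of 0.28. Of 21 still tested at an equal spread of M 3 were higher, without the library block 2, and with library totals 3 higher and 1 lower. Of 19 sterol synthesis genes 8 were higher and 0 lower, with a median of 0.25, with library totals 5 were higher and 3 lower, and without the library block 1 was higher. MVK, mevalonate kinase, rose by 0.92 and did not pass without library 2 (adjusted p = 0.095). Of 13 mitochondrial-encoded transcripts 3 were higher and 0 lower, with a median of 0.23 (2 higher at an equal spread of M, 0 without the library block). The median shares of mitochondrial-encoded UMIs per cell were also higher with the inhibitor (5.47% and 5.40% against 4.66% and 4.91%), and their part in the result was not tested.

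Matrix, adhesion and cytoskeletal genes moved both ways. Over all genes tested 14.0% were higher and 14.3% lower, and without the library block 584 and 572 of 9901. At an equal spread of M these counts were 1043 and 1009 of 8973. A few calls in a short list are therefore not read as a change of the list. Of 18 integrin and matrix genes 4 were higher and 9 lower, with a median of -0.55 (4 and 6 without the library block). Of 14 still tested at an equal spread of M 3 were higher and 5 lower. LOX, the enzyme that crosslinks collagen and elastin, had 2.72 and 3.34 CPM with EGF alone and 34.0 and 61.9 CPM with the inhibitor, a rise of 3.98 ± 0.28. PLAUR, the urokinase receptor, went from 25.3 and 25.7 to 6.94 and 5.07 CPM, a log2 change of -2.16. The fibroblast-associated proteoglycan DCN rose by 2.01, from 5.83 and 5.01 to 25.9 and 18.8 CPM. The 2 genes of the fibroblast list that were in both tables, DCN and COL1A1, summed to 5.49 and 6.10 CPM of all UMIs with EGF alone and 26.2 and 20.2 with the inhibitor, with COL1A1 at 0, 2, 7 and 12 UMIs; their part in the result was not tested. Of 14 YAP/TEAD targets 2 were higher and 4 lower (0 and 3 without the library block), with a median of -0.08, led by NT5E, the CD73 ectonucleotidase (126 and 114 against 15.8 and 17.3 CPM, -2.83 ± 0.17), and the tissue factor gene F3 (-2.06). Of 18 actin and SRF targets 4 were higher and 6 lower (5 and 3 at an equal spread of M, 3 and 1 without the library block), with ACTN4 at 0.91 and its paralog ACTN1 at -0.84. Of 17 p53 targets 5 were higher and 1 lower, with a median of 0.05 (2 and 1 without the library block). With library totals 5 were higher and 5 lower, with a median of -0.10, beside 931 and 2217 over all 9901 genes. FDXR, ferredoxin reductase, rose by 1.18, and AEN, a nuclease, fell by 1.94 on the log2 scale.

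Other large changes, most of them of genes outside the lists, were these. Rises with at least 20 CPM in a condition were ATP2B4, a plasma membrane calcium pump (4.35), EPHB6, an Eph receptor without kinase activity (4.0), WISP2 (3.74), the endocytic receptor LRP1 (3.72), SERPINB13 (3.71), IGFL2-AS1 (3.65) and GPR1 (3.63). IGFL2-AS1 is an antisense gene, and the sources used here do not say whether the counting used strand. Under the same limit of 20 CPM the largest fall was that of ACOX2, a peroxisomal oxidase of bile acid precursors, from 32.3 and 21.4 to 1.26 and 0.845 CPM, with a log2 change of -4.56 ± 0.41. The limit asks for 20 CPM in only 1 of the conditions, so the lower level can rest on a few UMIs. This holds for ACOX2 with the inhibitor and for ATP2B4 with EGF alone (1.17 and 1.00 CPM). The size and rank of such changes are therefore uncertain. TRIB3, a pseudokinase of the stress response, changed by -3.44, ANGPTL4, an inhibitor of lipoprotein lipase, by -3.44, and PLEK2 by -2.87. THBS1, thrombospondin and a member of the matrix list, changed by -3.11 but by -1.19 without library 2, where it did not pass (adjusted p = 0.27).

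**Figure D4:**
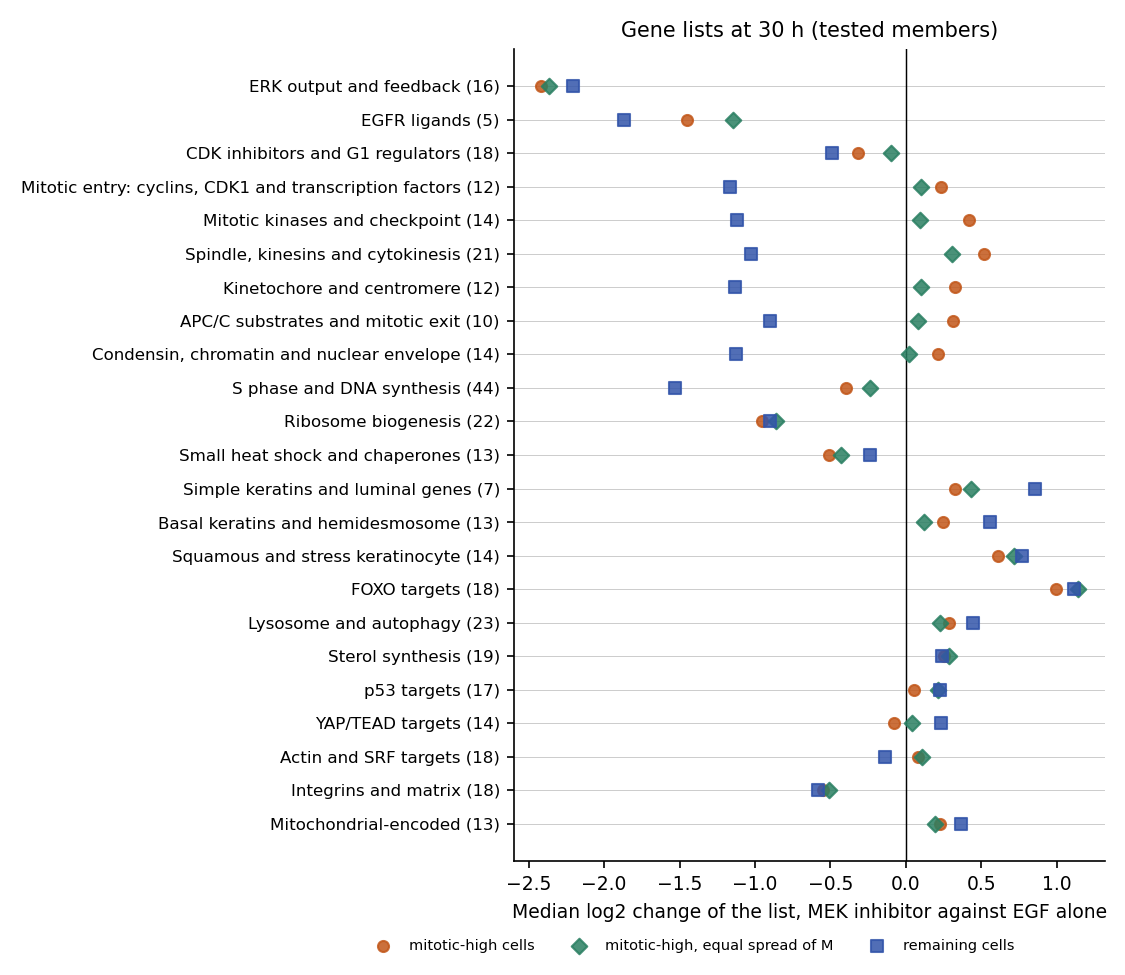
Median log2 change (MEK inhibitor against EGF alone, 30 h) of the tested members of each of 23 lists, with the number tested in mitotic-high cells in parentheses, in mitotic-high cells (circles), mitotic-high cells at an equal spread of M (diamonds) and remaining cells (squares). The mitotic lists lie between 0.21 and 0.52 in mitotic-high cells and between -1.17 and -0.90 in the remaining cells.

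The remaining cells of the same cultures changed in many of the same genes. There 2773 of 10569 genes (26.2%) passed. That fit held sums of all 8 conditions and the mitotic-high fit only those at 20 h and 30 h of the 2 groups. The counts called in the classes thus come from unlike fits. Of 9760 genes tested in both classes 1673 were called in both with the same direction, which is 60.2% of the calls in mitotic-high cells and 62.8% of those in the remaining cells. Another 48 were called in both in opposite directions, 47 of them higher in mitotic-high and lower in remaining cells, and 30 of the 48 are genes of the mitotic lists. All 6 mitotic lists had 0 higher genes in the remaining cells, and 62 of 83 were lower (median -1.09). Both classes were cut from a mitotic score, and among remaining cells the median M was 0.755 with EGF alone and 0 with the inhibitor in library 1, and 13.4 and 1.83 in library 2, so nothing is read from this contrast for genes that vary with the score.

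The test of the difference itself, with each culture as a block, called 0 of 10538 genes (0%; edgeR, 611 at an unadjusted p under 0.05). With 1 threshold for both libraries it called 509 of 10105 (5.04%), 424 higher and 85 lower in mitotic-high cells, among them 74 of the 83 mitotic-list genes. Outside the cell cycle lists, TRIB3 changed by -3.44 in mitotic-high and -1.45 in remaining cells (difference -1.96 ± 0.50, adjusted p = 0.229, and -2.09 with 1 threshold, adjusted p = 7.61e-05). KRT8 changed by 3.31 and 2.25 (difference 1.10 ± 0.29, adjusted p = 0.242, and 1.13, adjusted p = 8.88e-06). For ribosome biogenesis the median difference between classes was -0.08, and 0 of 22 genes passed in either version (edgeR; 0 at an unadjusted p under 0.05 in the first).

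**Figure D5:**
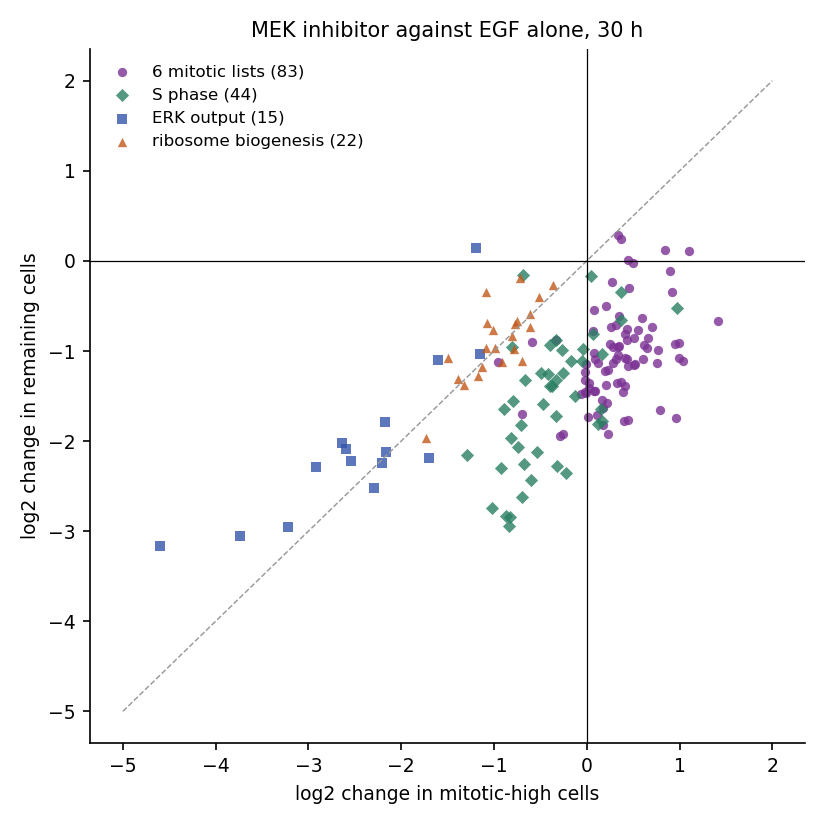
log2 change with the MEK inhibitor in mitotic-high cells (x axis) against remaining cells (y axis) for the tested genes of the mitotic, S phase, ERK output and ribosome biogenesis lists, 1 point per gene; SPRY4, at 0 UMIs with the inhibitor in mitotic-high cells, is not drawn. Most ERK output and ribosome biogenesis genes are negative on both axes, with EGR1 (-1.20 and 0.14) as an exception, and the mitotic genes lie below the dashed line of equal change.

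The same comparison for the PI3K inhibitor was not made, because library 2 held only 6 mitotic-high cells at 30 h with that inhibitor (55 in library 1), below the minimum of 10 cells per sum.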

How the data were processed

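UMI counts for each gene and cell were deposited without normalisation by the authors; Cell Ranger 3.0.2, Seurat and the build GRCh38 are named per the submitters' processing notes. The sources used here do not give the tag, cell and doublet filters. Of 8641 barcodes in library 1 and 6161 in library 2, 4848 (56.1%) and 2478 (40.2%) were marked as doublets by their tags. Only cells with a single tag were in the deposited count tables, and doublets of the same tag cannot be seen. How many of these are among the cells read, and their part in the results, was not tested. The 16387 genes in both tables were used. The mitotic-high cells and gene lists were chosen with earlier results of these data known. Counts were summed per library, condition and class (at least 10 cells). Sums of 20 h and 30 h of both groups were fitted with edgeR 4.0.16 (R 4.3.3, limma 3.58.1; TMM, filterByExpr, quasi-likelihood test, library as block), with adjusted p under 0.05. The 10 score genes stayed in library sizes and out of the table. The scripts were tested on simulated data.

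The replicate numbers pair the cultures, as each replicate was pooled in 1 library. Differences between the libraries in mitotic-high sums correlated over 5020 genes at r = 0.202 to 0.551 in 6 pairs of conditions. These correlations cannot show the pairing, because the threshold of M also differed between the libraries in every condition. The remaining cells were fitted apart, and the difference between classes in a joint fit with culture as block. CPM are TMM-scaled except where stated; the SE is the log2 change over the root of F. Named genes are the 10 largest rises and falls (adjusted p under 0.05, same sign in both libraries, at least 20 CPM), the 4 smallest p per list and members against their list's direction; others, such as CDK1 and the promoters' genes, are named for their role. Intervals cover counting error only. Positions are from GENCODE v29 and promoters from RefSeq on GRCh38.p14; CDKN1C had no entry among the promoters. Alternatives tried were filter, scaling, DESeq2 1.42.0, percentile of M, thinning to 3000 UMIs, the cells fitted, and leaving out the 30 h sums of either library.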

Additional observations from a re-analysis of the deposited data

Results flagged for a closer look

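Among the named genes 8 were called higher with the MEK inhibitor in mitotic-high cells and lower in the remaining cells, with the same sign in both libraries of each class. The change in mitotic-high cells minus that in the remaining cells, on the log2 scale, was 2.36 for CDK2, 2.17 for CCNA2 (cyclin A2), 1.72 for TTK, 1.40 for BIRC5 (survivin), 2.09 for NUSAP1, 1.25 for CENPW, 1.56 for CENPM and 1.43 for HMGB2. The test of the difference (edgeR, each culture as a block) gave adjusted p between 0.229 (CDK2) and 0.778 (BIRC5), so that none passed. The same test with 1 threshold for both libraries, chosen after seeing the data, did call genes among them. There the difference was 2.14 for CDK2 (adjusted p = 0.000471), 2.245 for CCNA2 (1.0e-24) and 1.72 for TTK (3.5e-07). It was 1.52 for BIRC5 (8.0e-18) and 1.96 for NUSAP1 (2.0e-27). All 8 are genes of the cell cycle lists, and the classes were cut from a mitotic score with which such genes vary, so these values are a description. CDK2 was measured at 6.01 to 17.7 CPM in mitotic-high cells, the lowest level of the 8. At an equal spread of M the changes of CCNA2, TTK and CENPW in mitotic-high cells no longer passed (0.16, 0.35 and 0.30, adjusted p = 0.417, 0.127 and 0.0775).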

How the results depend on the processing

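Over the 14 other settings of the MEK inhibitor comparison none of the named genes with a value reversed. The rule that named them asked for the same sign in both libraries, so this was largely set in advance for left-out libraries. Over all 2798 called genes, 40 of the 1985 with a value had the opposite sign with thinned cells, and 0 to 8 genes did in the other settings. All 113 named genes had a value in 6 settings, 111 or 112 in the others, except 92 with thinned cells. Calls were lost for 29 genes without library 1, 37 without library 2, 31 with no replicate block, 30 with DESeq2, 25 of the 92 with thinned cells, 14 at the 90th percentile of M, 13 at an equal spread of M, 12 with library totals and 0 to 5 in the others; leaving out a library also leaves fewer samples. Against 2798 genes called in mitotic-high cells, leaving out either library gave 708 to 1137, the 90th percentile of M 1849, thinned cells 715, DESeq2 855 and no replicate block 1156. The cause of these counts was not tested. Against 0 genes called for the difference between classes, the unfiltered table gave 145, the median of M 28, thinned cells 5, a library block (the replicate block) in place of the culture block 2, left-out libraries 5 to 32, and 1 threshold for both libraries, chosen after seeing the data, 509; the other settings gave 0.

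The share of mitotic-high cells changes by construction with the percentile or threshold that sets the class. With EGF alone in library 1 it was 45.3% at the 90th percentile, 79.6% at the median and 22.0% with 1 threshold, and in library 2 13.4%, 87.8% and, thinned, 46.2%. With the inhibitor it was 48.8% at the median and 23.1% with 1 threshold in library 1, and 28.4% at the 90th percentile, 68.8% at the median and 49.0% thinned in library 2. Alternatives planned for the PI3K inhibitor were not run. Depth limits genes under a few CPM: 1 UMI is 0.63 CPM in the smallest mitotic-high sum at 30 h, and the 20 h sums of library 2 in the fit hold as few as 102039 UMIs.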
